A study of Mus musculus with 16 samples.

Results

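The 9 genes described here encode homeodomain transcription factors that pattern the anterior brain of the mouse embryo: Otx1, Otx2, Six3, Hesx1, En1, En2, Lhx2, Rax and Emx2. They were taken by symbol from the deposited transcript table, by a rule that names the genes and sets no threshold on their values, and are 9 of the 24221 genes to which its RefSeq rows could be assigned. All 9 were above 0 in at least 1 library and entered the test. The cells were R1 mouse embryonic stem cells, a single line, grown as embryoid bodies, free-floating aggregates in which many lineages arise side by side. Bodies of both groups had first formed for 4 days without leukemia inhibitory factor, which keeps stem cells undifferentiated. Day 0 is the day on which retinoic acid was added, and day 4 bodies had then received 2 uM retinoic acid for 4 days. Bodies kept for the same time without retinoic acid are not among the groups, so the agent and the time in culture cannot be told apart. The procedure was carried out on 2 occasions, which gave 2 RNA samples per day. Each RNA was divided into 4 vials that received a different mix of in vitro transcribed (IVT) mouse RNA spike-ins, or none of these in mix 4. Every vial also received ERCC control RNAs, ERCC mix 1 with IVT mixes 1 and 3 and ERCC mix 2 with IVT mixes 2 and 4, and the 16 libraries are therefore 4 RNA samples in 4 splits. The RNA sample, as the mean of its 4 vials, was the replicate throughout (n = 2 per day).

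In the embryo, Otx2 is needed for the head organizer and then marks forebrain and midbrain, where Otx1 acts beside it. Hesx1, Six3 and Rax act in the anterior neural plate and eye field, Lhx2 in the eye field and the cortex, Emx2 in the dorsal telencephalon, and En1 and En2 at the border of midbrain and hindbrain. Retinoic acid is a textbook posteriorizing signal in the neural plate and induces Hox genes of the hindbrain and spinal cord. Several of these factors also work outside the brain: Emx2 in the urogenital system and Lhx2 in limb and liver, and Otx2 is active in the epiblast before the brain forms.

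The paper names the mix 1 library of day 4 replicate 1 as an outlier in its share of ribosomal RNA reads. By the correlation between vials, the libraries stood apart in 1 RNA sample. The lowest correlation of a vial with another vial of its own RNA was 0.952 to 0.976 in 3 RNA samples but 0.740 to 0.811 in day 0 replicate 2, in which the vials of mix 3 and mix 4 differed from those of mix 1 and mix 2. FPKM values are fragments scaled to transcript length and library size. Over all rows, spike-in rows included, they summed per library to between 411090 and 622888 at day 0 and between 422219 and 446834 at day 4. The number of fragments behind a value is unknown, so values carry no counting interval. The smallest value above 0 was 0.009 to 0.011 FPKM in each library, and a level of 0.01 or 0.02 is close to that step. In bulk RNA, fewer cells of a type and less RNA per cell cannot be told apart.

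Of the 9 regulators, Lhx2 and Emx2 rose between day 0 and day 4 and Otx2 fell, while the other 6 stayed below 0.5 FPKM in every library. The test was limma on log2(FPKM + 0.1) over 20542 genes, with a Benjamini-Hochberg adjusted p of at most 0.05. It called 2 of the 9 higher at day 4, against 16% of all genes tested. It called 2 of the 9 lower, Otx2 and Otx1, against 14.5% of all genes tested. These counts are too small to set against the background, and the genes are described singly. With 2 RNA samples per day an exact permutation test of a single gene cannot go below p = 0.333 (two-sided), so the calls lean on the spread that limma shares over genes. When either day 4 RNA sample was left out, limma called 0 genes in the whole table at the adjusted threshold, although 4941 (without replicate 1) and 4720 (without replicate 2) had an unadjusted p under 0.05. No call of a member or of a listed gene given here is independent of having both day 4 samples.

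**Figure D1:**
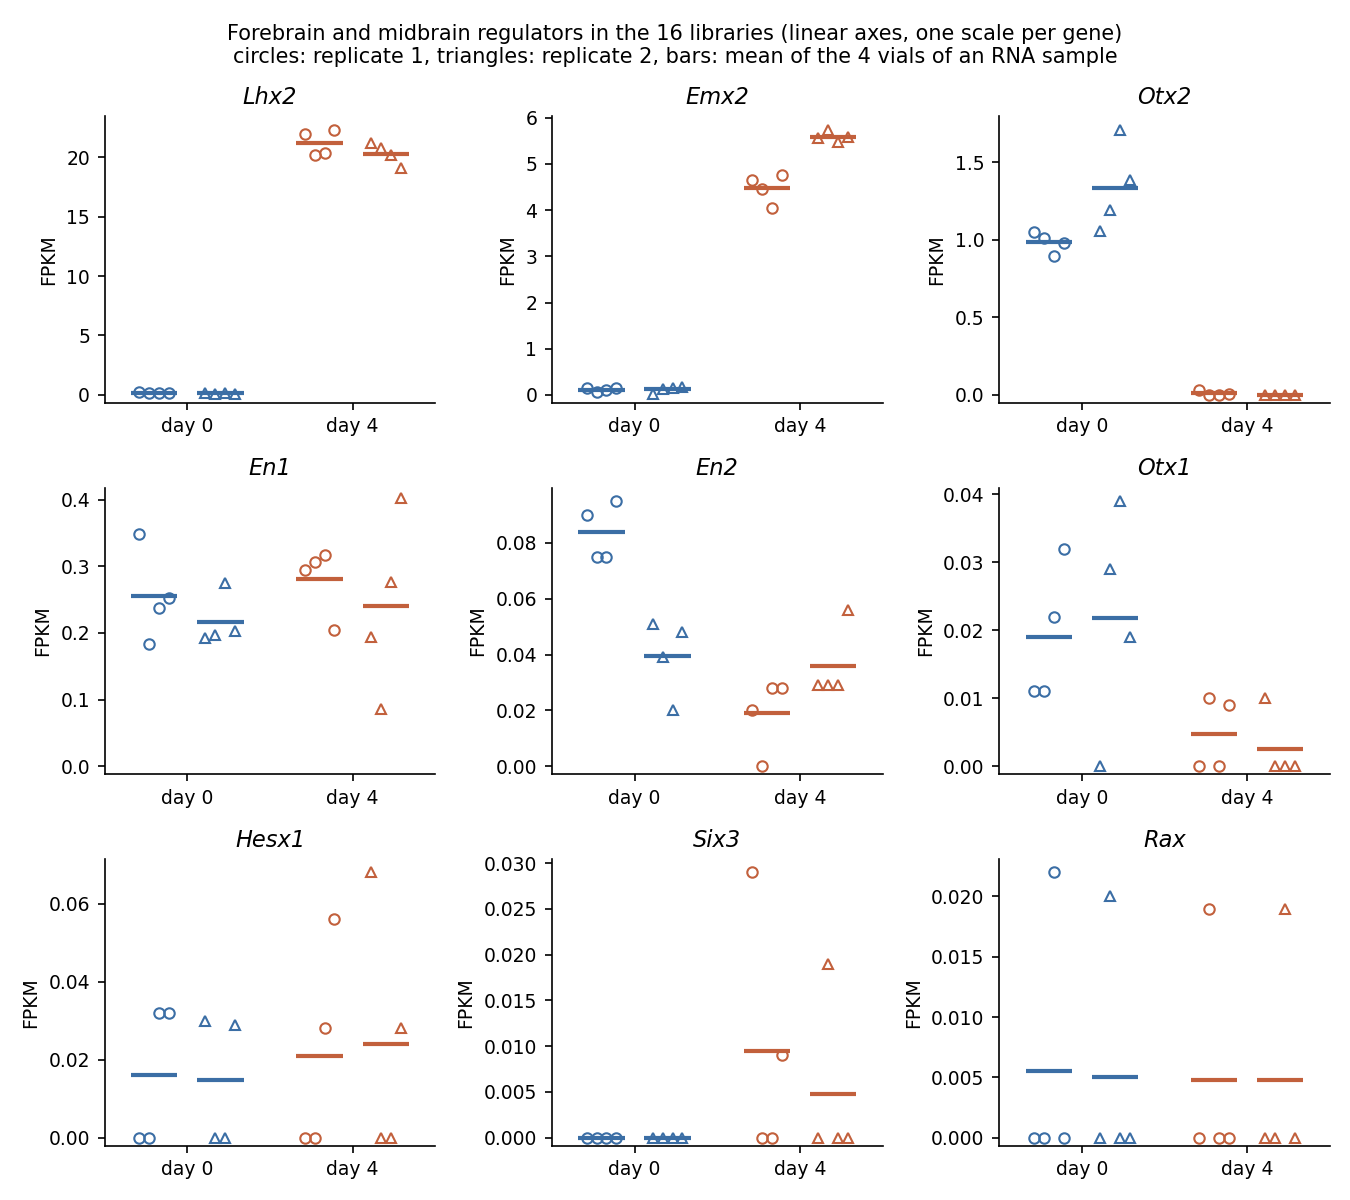
FPKM of the 9 regulators in each of the 16 libraries, by day, on linear axes with one scale per gene; circles are vials of replicate 1, triangles vials of replicate 2, and bars the mean of the 4 vials of an RNA sample. Day 4 libraries of Lhx2 and Emx2 lie far above day 0, those of Otx2 far below, and the other 6 genes stay under 0.5 FPKM with overlapping days.

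Lhx2, a LIM homeodomain factor at chr2:38339271-38369737 (GRCm38, plus strand), showed the largest difference among the 9. At day 0 its FPKM was 0.106 in the lowest library, 0.139 at the median and 0.203 in the highest. At day 4 the lowest library had 19.1 FPKM, the median was 20.6 and the highest was 22.3. All 8 day 4 libraries were thus far above all 8 day 0 libraries, and the vials of the 2 day 4 replicates overlapped. The mean was 0.142 ± 0.022 FPKM at day 0 and 20.8 ± 0.63 at day 4 (SD over RNA samples, n = 2 each), a ratio of 146. On the log2(FPKM + 0.1) scale the difference was 6.43 (SE 0.22, limma adjusted p = 0.00462). Among the genes tested, 31.6% had a lower mean than Lhx2 at day 0 and 82.3% at day 4.

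Emx2, a homeodomain factor at chr19:59458690-59465357 (plus strand), was the second to rise. Its day 0 libraries had 0.030 FPKM at the lowest, 0.142 at the median and 0.174 at the highest. Its day 4 libraries had 4.05, 5.12 and 5.75 FPKM in the same order. The days did not overlap, and neither did the 2 replicates of day 4: the vials of replicate 1 lay between 4.05 and 4.77 FPKM and those of replicate 2 between 5.48 and 5.75. The mean went from 0.119 ± 0.0078 to 5.04 ± 0.78 FPKM (SD, n = 2 each), a ratio of 42.2. The log2 difference was 4.54 (SE 0.26, limma adjusted p = 0.00468). From the libraries of mix 3 alone the difference was 4.42 and the adjusted p was 0.0517.

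Otx2, at chr14:48656781-48667644 (minus strand), was the most abundant of the 9 at day 0 and was at or near 0 at day 4. The vials of day 0 replicate 1 had 1.05, 1.01, 0.893 and 0.979 FPKM for mixes 1 to 4, and those of replicate 2 had 1.05, 1.19, 1.71 and 1.38 FPKM. The highest pair belongs to the vials of replicate 2 that stood apart from the rest. At day 4 replicate 1 had 0.029 and 0.009 FPKM with mixes 1 and 4, and the other 6 libraries were listed at 0. The mean was 1.16 ± 0.25 FPKM at day 0 and 0.0048 ± 0.0067 at day 4 (SD, n = 2 each). On the log2(FPKM + 0.1) scale Otx2 fell by 3.57 (SE 0.22, limma adjusted p = 0.0049), a difference that the pseudocount bounds because day 4 is near 0. With 0.01 in place of 0.1 the log2 difference was -6.37, and with 1 it was -1.10. Without the vials of mix 3 and mix 4 of day 0 replicate 2 it fell by 3.46 (limma adjusted p = 0.00122), and from the mix 3 libraries alone by 3.74 (adjusted p = 0.0607).

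Otx1, the paralog of Otx2 at chr11:21994764-22001651 (minus strand), was called lower at a level close to the smallest step of the table. Its highest day 0 library had 0.039 FPKM, with 7 of 8 above 0. Its highest day 4 library had 0.010 FPKM, with 3 of 8 above 0. The days overlap. The means were 0.0204 ± 0.0019 and 0.0036 ± 0.0016 FPKM (SD, n = 2 each), and the log2 difference was -0.22 (SE 0.05, limma adjusted p = 0.0487). The call held under 4 of 18 alternatives, whose adjusted p ran from 0.0412 to 1.0. Without day 0 replicate 1 the adjusted p was 0.0568.

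En1, which marks the border of midbrain and hindbrain and is also active in limb and somite derivatives, was the only other regulator above 0.1 FPKM. Its 8 libraries had 0.183 FPKM at the lowest, 0.220 at the median and 0.349 at the highest at day 0, and 0.086, 0.286 and 0.402 at day 4. The days overlap over most of their range, and the log2 difference of 0.10 (SE 0.18, limma adjusted p = 0.682) did not pass. En2, its paralog, had vials of 0.075 to 0.095 FPKM in day 0 replicate 1, 0.020 to 0.051 in day 0 replicate 2, 0 to 0.028 in day 4 replicate 1 and 0.029 to 0.056 in day 4 replicate 2. The replicates of day 0 were further apart than day 0 replicate 2 was from day 4, and the difference of -0.33 (SE 0.17, adjusted p = 0.208) did not pass. En1 lies at chr1:120602487-120607991 and En2 at chr5:28165696-28172190.

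The 3 regulators of the anterior neural plate and eye field were at or near 0 on both days. Six3, at chr17:85613608-85626191, was listed at 0 in all 8 day 0 libraries and was above 0 in 3 of 8 at day 4, with at most 0.029 FPKM. Hesx1, a repressor needed for the forebrain and pituitary (chr14:26994419-27002329), was above 0 in 4 of 8 libraries on each day, with at most 0.032 FPKM at day 0 and 0.068 at day 4. Rax, the eye field factor at chr18:65934639-65939089, was above 0 in 2 of 8 libraries on each day, with at most 0.022 and 0.019 FPKM. None of the 3 passed the limma test, with adjusted p of 0.203, 0.289 and 0.914. A p above the threshold at levels this close to the smallest step does not show that there was no difference.

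The order of the levels therefore changed between the days. At day 0 Otx2 came first, and its libraries did not overlap those of En1, the second. Below it, the libraries of each gene overlapped those of its neighbour in the order En1, Lhx2, Emx2, En2, Otx1, Hesx1, Rax, and Six3 at 0. At day 4 Lhx2, Emx2 and En1 followed each other without overlap and En1 did not overlap En2. The libraries of En2, Hesx1, Six3, Otx2, Rax and Otx1 overlapped from each gene to the next. FPKM is scaled to transcript length but not to GC content, and the log2 difference between days had a slope of -1.057 per 10% GC over rows. The order between genes is therefore approximate.

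**Figure D2:**
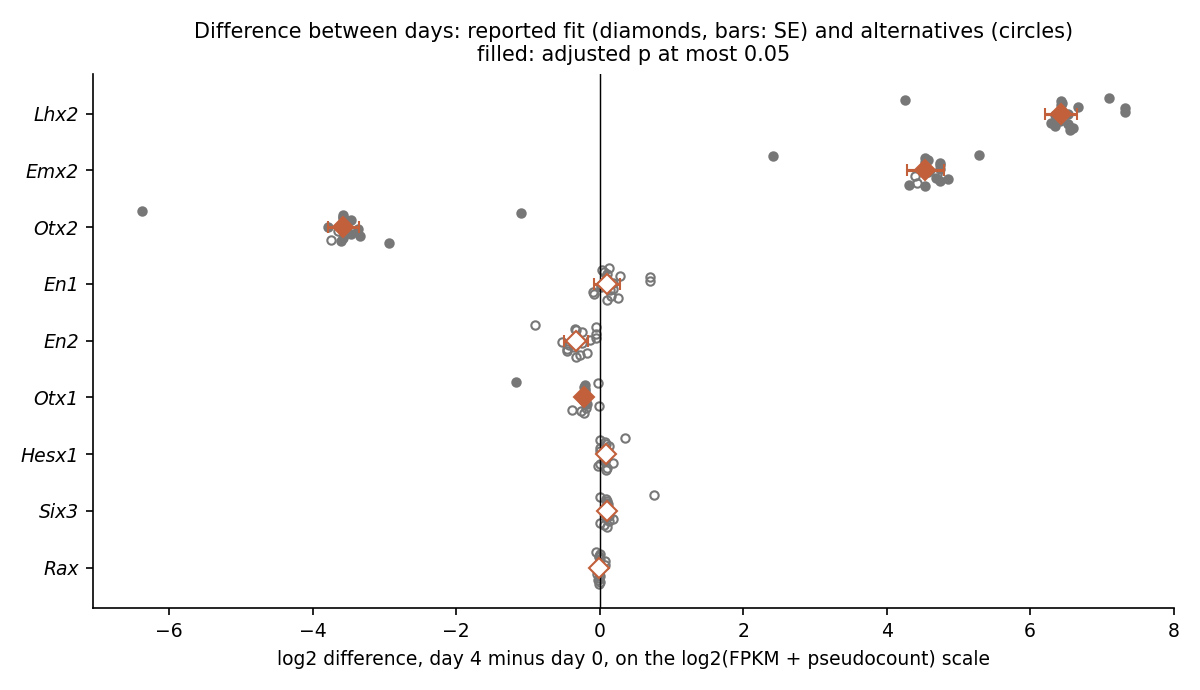
Difference between day 4 and day 0 for each regulator (x axis, log2 of FPKM plus pseudocount); diamonds with bars are the reported fit with its SE, circles are alternatives, and filled symbols have an adjusted p of at most 0.05. Lhx2 and Emx2 stay positive and Otx2 negative in every alternative, at sizes that depend most on the pseudocount, while Otx1 and En2 are negative in every alternative, between -1.16 and -0.01 and between -0.90 and -0.05, and the other 4 genes lie around 0.

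The rows of the transcript table show which annotated isoforms carried Lhx2 and Otx2. RSEM divides reads that fit several isoforms of a gene, so the division between rows is an estimate. On the row level limma called 10.2% of 28213 rows higher and 8.67% lower at day 4. The Lhx2 row NM_001290646 held 86.6% of the gene's FPKM at day 0 and 99.4% at day 4. It went from a mean of 0.123 to 20.6 FPKM (log2 difference 6.56, SE 0.29, limma adjusted p = 0.0155). The other Lhx2 row, NM_010710, was above 0 in 1 of 8 libraries on each day, at 0.152 and 0.968 FPKM. In GENCODE M21 both rows have 5 exons and share 1171 exonic bases, while 525 bases belong to NM_001290646 alone and 1669 to NM_010710 alone. In that annotation NM_001290646 starts at the upstream end of the gene, at base 38339281 of chromosome 2, and NM_010710 at base 38350759.

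At day 0 the Otx2 row NM_144841, which has the most downstream start of the 4, was above 0 in all 8 libraries, between 0.368 and 1.04 FPKM, and held 58.0% of the gene's FPKM. NM_001286483 held 17.7%, NM_001286481 17.5% and NM_001286482 6.8%, and each of these was at 0 in 2 or more libraries. NM_001286483 has 0 exonic bases of its own and reached 0.855 FPKM in its highest library. NM_144841 and NM_001286481 passed the test over rows (log2 differences -2.94 and -1.60, both with a limma adjusted p of 0.0155). The 2 others did not (adjusted p = 0.0795 and 0.15). At day 4 all rows except NM_001286483 were listed at 0 in every library.

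**Figure D3:**
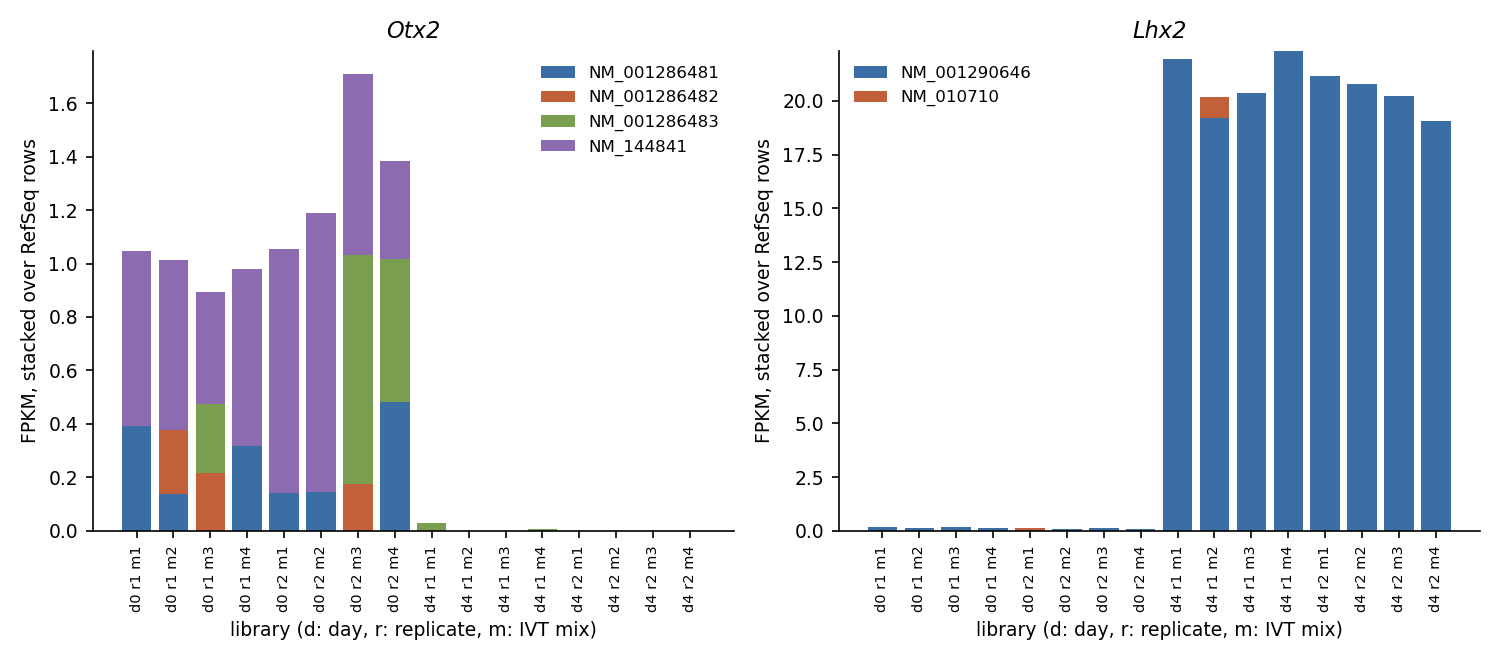
FPKM of the RefSeq rows of Otx2 (left) and Lhx2 (right), stacked, in each of the 16 libraries (x axis: day, replicate and IVT mix). NM_144841 is present in all day 0 libraries of Otx2 while the other 3 rows come and go, and NM_001290646 makes up nearly all of Lhx2 at day 4.

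Sequences around starts of Lhx2, Emx2 and Otx2 are shown because these are the regulators with the largest differences; for Otx2, 2 of its 4 windows are printed, the one nearest to the start of its most abundant row and the one with the most motifs. They run from 250 bases before to 50 bases after a RefSeq start (GRCm38.p6) and are written 5′ to 3′ on the strand of the gene. Capitals mark TAATTA, the core bound by many homeodomain factors, and TAATCC or its reverse complement GGATTA, the core preferred by Otx proteins. Both strands were searched (TAATTA is its own reverse complement), and AGGTCA, the half-site of retinoic acid receptors, was searched as well. The first Lhx2 window belongs to the row that carried the day 4 signal, and the second is the one nearest to the start of NM_010710.
Lhx2, upstream start, chr2:38339031-38339330: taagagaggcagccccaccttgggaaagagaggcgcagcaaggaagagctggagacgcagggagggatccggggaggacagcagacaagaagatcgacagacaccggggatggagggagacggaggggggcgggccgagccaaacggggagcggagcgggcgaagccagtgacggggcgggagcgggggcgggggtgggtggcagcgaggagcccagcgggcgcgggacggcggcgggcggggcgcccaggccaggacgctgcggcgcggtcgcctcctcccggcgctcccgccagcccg
Lhx2, downstream start, chr2:38351058-38351357: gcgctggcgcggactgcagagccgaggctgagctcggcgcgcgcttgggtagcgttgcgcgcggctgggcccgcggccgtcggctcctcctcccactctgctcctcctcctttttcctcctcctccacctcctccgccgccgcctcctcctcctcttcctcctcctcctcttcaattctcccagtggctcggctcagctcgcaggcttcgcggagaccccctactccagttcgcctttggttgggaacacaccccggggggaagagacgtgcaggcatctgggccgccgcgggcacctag
Emx2, chr19:59458440-59458739: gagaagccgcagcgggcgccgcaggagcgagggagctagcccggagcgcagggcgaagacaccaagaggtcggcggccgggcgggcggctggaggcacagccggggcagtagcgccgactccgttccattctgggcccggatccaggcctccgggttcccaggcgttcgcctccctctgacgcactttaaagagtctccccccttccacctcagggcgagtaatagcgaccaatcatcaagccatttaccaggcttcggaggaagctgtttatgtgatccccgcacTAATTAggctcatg
Otx2, downstream start, chr14:48662685-48662984: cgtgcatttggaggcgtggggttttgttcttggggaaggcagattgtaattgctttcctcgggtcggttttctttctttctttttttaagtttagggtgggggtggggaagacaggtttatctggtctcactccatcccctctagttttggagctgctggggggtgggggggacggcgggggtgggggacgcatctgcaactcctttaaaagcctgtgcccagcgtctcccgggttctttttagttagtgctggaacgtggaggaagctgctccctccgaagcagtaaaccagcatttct
Otx2, middle start, chr14:48665060-48665359: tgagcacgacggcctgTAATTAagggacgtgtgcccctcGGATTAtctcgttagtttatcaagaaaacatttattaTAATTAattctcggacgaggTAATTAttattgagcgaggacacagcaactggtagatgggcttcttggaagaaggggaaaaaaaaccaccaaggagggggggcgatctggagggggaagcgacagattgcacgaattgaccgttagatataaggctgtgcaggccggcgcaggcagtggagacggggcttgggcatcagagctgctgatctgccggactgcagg
Both Lhx2 windows are rich in G and C (74.7% and 69.3%) and hold none of the 3 motifs. The Emx2 window has 64.3% GC and 1 TAATTA, which lies after the start. The downstream Otx2 window holds no motif and the middle one, nearest to the start of NM_001286483, holds 3 TAATTA and 1 TAATCC core. Of the 2 upstream Otx2 windows, which are not printed, chr14:48667595-48667894 holds 1 TAATTA and chr14:48667459-48667758, nearest to the start of NM_001286481, holds no motif. Of 32851 mouse promoter windows of the same length, 5.3% held TAATTA, 7.1% TAATCC and 16.3% AGGTCA on either strand. AGGTCA was found in none of the windows of the 6 regulators with an entry that was read (Otx2, Six3, Hesx1, En1, Lhx2 and Emx2). A match describes letters in a window and not a bound site.

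Antisense transcripts are annotated beside 3 of the regulators, and the strand-aware counting of the authors keeps them separate from the genes. Emx2os, whose gene lies at chr19:59425104-59458635, rose with Emx2. This interval lies just upstream of that of Emx2 by the coordinates given above. The GENCODE start of the Emx2 row NM_010132, at base 59458372, lies inside the Emx2os interval and before the printed Emx2 window. For Emx2os the libraries had at most 0.011 FPKM at day 0, where 4 of 8 were above 0. At day 4 they had 0.314 FPKM at the lowest, 0.362 at the median and 0.436 at the highest. The log2 difference was 2.16 (SE 0.12, limma adjusted p = 0.00468). The replicate with the higher Emx2 at day 4 was not the one with the higher Emx2os: the RNA sample means of Emx2os were 0.396 and 0.346 FPKM for replicates 1 and 2, against 4.48 and 5.59 FPKM for Emx2. Six3os1, at chr17:85601932-85618396, went from 0.0282 ± 0.0014 to 0.0948 ± 0.0032 FPKM (SD, n = 2 each; log2 difference 0.60, limma adjusted p = 0.0143), with the lowest day 4 library with 0.059 FPKM just above the highest day 0 library with 0.058. Its level is the sum of 8 rows, none of which passed alone, and Six3 itself remained at or near 0. Otx2os1 was listed at 0 in all 16 libraries.

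**Figure D4:**
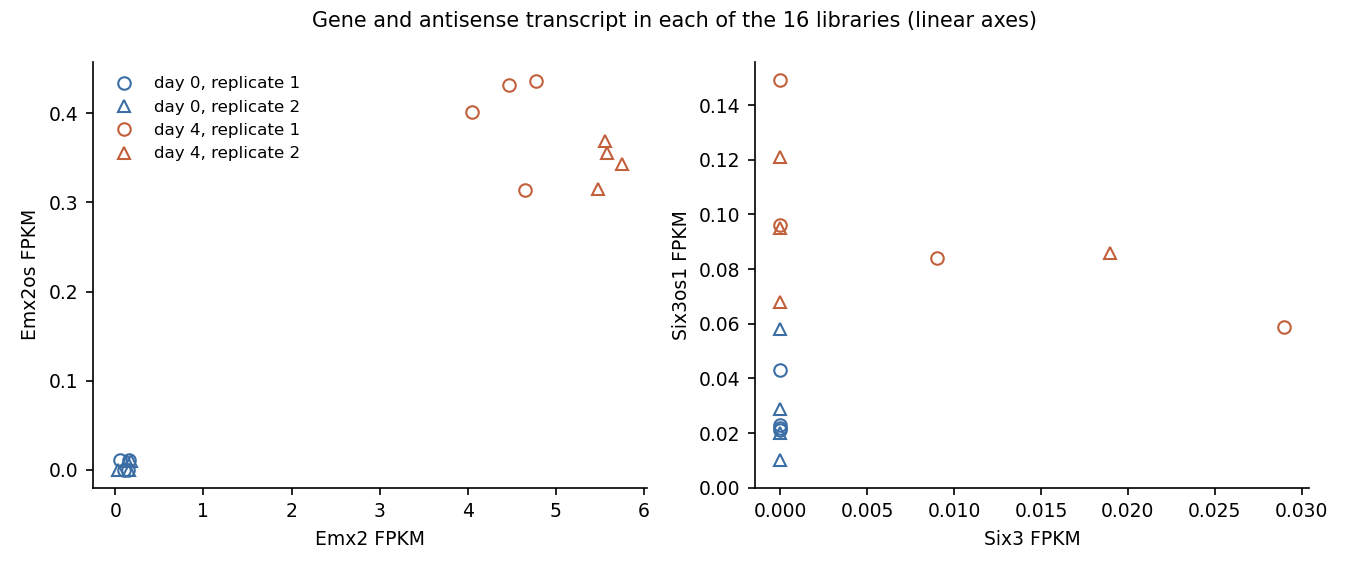
Antisense transcript (y axis, FPKM) against its gene (x axis, FPKM) in each library, for Emx2 with Emx2os (left) and Six3 with Six3os1 (right), on linear axes. Emx2 and Emx2os are both high in all 8 day 4 libraries, whereas Six3os1 is higher at day 4 with Six3 at or below 0.029 FPKM.

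Other genes of the same brain regions, set beside the regulators from lists given by region, mostly stayed low as well. The median log2 difference of all genes tested was -0.03. Of 12 telencephalon genes, 10 were above 0 in any library, 1 rose and 1 fell, with a median of -0.06. Sp8, a zinc finger factor of the anterior neural ridge, fell from 1.85 to 0.172 FPKM (log2 difference -2.81). Emx1, the paralog of Emx2 in the cortex, was listed at 0 in all 8 day 4 libraries, as were Dlx2, Gsx2, Nr2e1 and Fezf1. The list summed to 1.87 to 3.72 FPKM per library before treatment and 1.18 to 1.56 after it.

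Of 8 eye field and hypothalamus genes tested, 1 rose and 1 fell (median 0.20). Pax6, the paired box factor of eye and forebrain that is also active in hindbrain and spinal cord, rose from 0.130 to 0.372 FPKM (log2 difference 1.03), a call that was lost without either day 0 sample (0 of the list higher). Vax1, a homeodomain factor of the optic stalk, fell from 0.284 to 0.0095 FPKM (log2 difference -1.74). That call was lost under several alternatives, among them a pseudocount of 1, the mean of log2 values of the vials, and RefSeq rows. Of 7 diencephalon genes, 2 rose and 1 fell (median 0.09). Lhx9, the closest relative of Lhx2, rose from 0.0397 to 0.335 FPKM (log2 difference 1.64) and so stayed far below Lhx2. Tcf7l2, a Wnt pathway factor also found in gut and other tissues, rose from 0.610 to 1.36 FPKM (log2 difference 1.04). Barhl2 fell from 0.0581 FPKM to a listed 0.

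Of 11 midbrain and isthmus genes tested, 5 fell and 1 rose, with a median of -0.06, and with a correction for GC content 3 rose and 5 fell. Fgf8, the growth factor of the isthmus that is also made in the primitive streak, had 1.64 to 15.998 FPKM over the day 0 libraries and at most 0.028 at day 4 (log2 difference -6.33, SE 0.60, limma adjusted p = 0.00869). Fgf17, a related ligand, fell from 0.886 to 0.018 FPKM (log2 difference -2.92), and Tal2, a factor of midbrain GABA neurons, from 2.02 to 0.0816 FPKM (log2 difference -3.54). Lmx1a, a LIM homeodomain factor of roof plate and ventral midbrain, rose from 0.0837 to 0.459 FPKM (log2 difference 1.60). Pax2, Pax5 and Wnt1, defining genes of the midbrain and isthmus, had at most 0.037 FPKM in any day 4 library.

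Among 13 genes of the anterior organizer and secreted antagonists, 7 fell and 3 rose (median -1.31). Sfrp1, a secreted Wnt antagonist, rose from 2.13 ± 0.083 to 171 ± 3.7 FPKM (SD, n = 2 each; log2 difference 6.26, limma adjusted p = 0.00462). Lefty1, a Nodal antagonist, fell from 5.96 to 0.247 FPKM (log2 difference -4.02), and Fst, which binds activin, from 13.5 to 1.88 FPKM (log2 difference -2.79). Gsc, a homeobox gene of the organizer, had 0.049 to 2.32 FPKM at day 0 and was listed at 0 in all day 4 libraries. In contrast, 10 of 16 hindbrain and spinal cord genes rose and 4 fell (median 2.64). Of the 11 Hox genes in that list, 9 rose and 0 fell. Hoxa4 went from 0.0714 to 41.1 FPKM (log2 difference 7.91), Hoxa5 from 0.357 to 85.4 (7.55) and Hoxa2 from 0.0658 to 20.4 (6.95), while Cdx2, a regulator of trunk Hox genes, fell from 44.5 to 0.188 FPKM (log2 difference -7.21).

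Partners and relatives of the regulators were also measured. Of 9 corepressors and LIM cofactors, 3 rose and 1 fell (median -0.02). Ldb2, which bridges LIM homeodomain proteins such as Lhx2, rose from 0.483 to 7.85 FPKM (log2 difference 3.77, SE 0.22, limma adjusted p = 0.00472). Lmo4, a LIM-only protein that binds the same bridge, rose from 10.9 to 35.5 FPKM (log2 difference 1.70). Tle1, a Groucho corepressor, rose from 4.93 to 10.4 FPKM (log2 difference 1.07) and Tle4 fell from 15.5 to 8.43 FPKM (log2 difference -0.88). Ldb1, the more abundant bridge protein, had 38.8 and 22.7 FPKM and did not pass. Of 8 relatives of the regulators, 2 rose and 1 fell (median -0.05): Lhx9 rose as given above and Six2 fell from 0.423 to 0.081 FPKM (log2 difference -1.53).

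**Figure D5:**
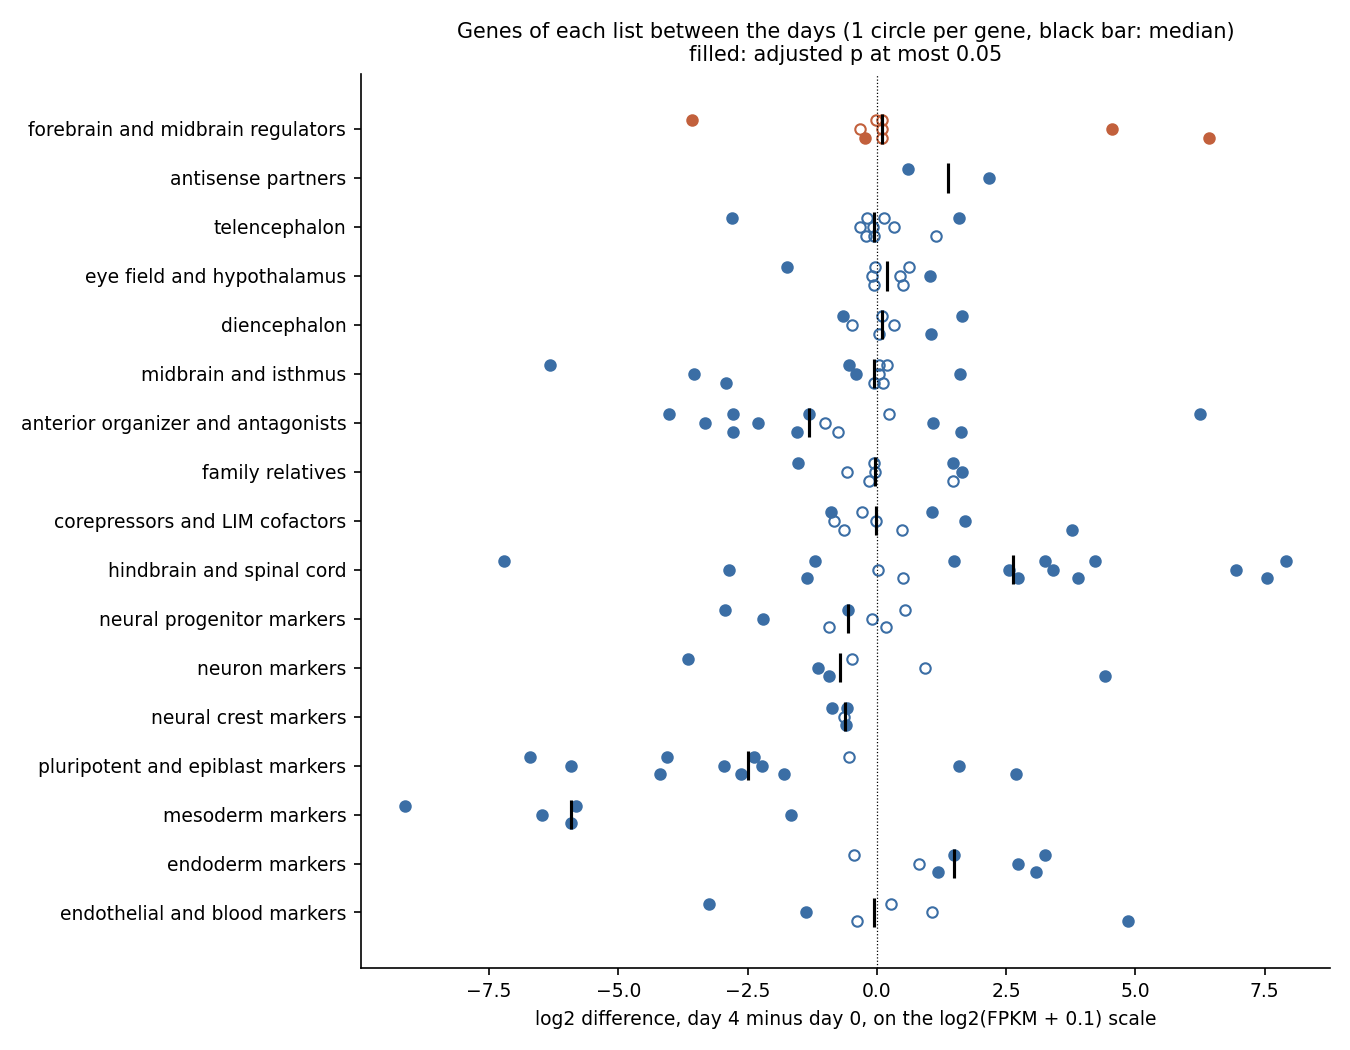
Difference between day 4 and day 0 (x axis, log2(FPKM + 0.1)) for each gene of each list; 1 circle is 1 gene, filled circles have an adjusted p of at most 0.05 and black bars are medians. The 9 regulators in the top row spread from -3.57 to 6.43, the brain region lists centre near 0, and the hindbrain and spinal cord list has its median at 2.64.

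The label of these genes as brain regulators was set against markers of the cells that the bodies could hold. Neural progenitor markers summed to 25.5 to 35.5 FPKM per library at day 0 and 21.0 to 23.6 at day 4. Most of this sum was Nes alone, with means of 20.8 and 19.3 FPKM, which did not pass. Of the 7 markers 3 fell while 0 rose by limma (2 fell and 1 rose with library sums made equal, and likewise with the GC correction). With the GC correction and the replicate number as a block together, 2 fell and 3 rose. Sox1, the most specific of them, had 0.112 and 0.0451 FPKM, Sox2 fell from 7.20 to 1.46 FPKM and Sox3 from 0.932 to 0.0262. Most pluripotent and epiblast markers fell over the same interval, and which cells carried Sox2 and Sox3 was not identified. Of 6 neuron markers, 1 rose and 3 fell: Dcx rose from 0.0126 to 2.31 FPKM (log2 difference 4.42) and Tubb3 fell from 12.03 to 0.761 FPKM (log2 difference -3.66). The cells that express Lhx2 and Emx2 were not identified.

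Markers of other lineages moved over the same interval. Of 12 pluripotent and epiblast markers, 9 fell and 2 rose, and their sum went from 127 to 251 FPKM per library to 15.1 to 20.1. Tdgf1 fell from 51.4 to 0.388 FPKM, and Pou5f1, which had 10.4 to 94.4 FPKM over the day 0 libraries, fell to 0.864. Both genes that rose are epiblast markers: Fgf5 went from 0.289 to 1.07 FPKM (log2 difference 1.58) and Pou3f1, which is also active in neural cells, from 0.647 to 4.74 FPKM (log2 difference 2.70). Of 5 mesoderm markers of the primitive streak all fell, T from 67.0 to 0.019 FPKM, with Mesp1 and Msgn1 at 0 in every day 4 library. Of 7 endoderm markers 5 rose and 0 fell, with sums of 14 to 17.6 FPKM per library at day 0 and 76.5 to 80 at day 4. Most of the day 4 sum was Gata6 (6.36 to 54.4 FPKM) and Gata4 (6.60 to 18.6 FPKM). The sum therefore mainly follows these 2 genes and does not measure the amount of endoderm. The others that rose stayed lower: Apoa1 (0.0511 to 1.34 FPKM), Afp (0.0201 to 0.773) and Foxa2 (0.307 to 0.825). Sox17 (2.14 to 1.56 FPKM) and Ttr (0.265 to 0.534) did not pass. Of 6 endothelial and blood markers 1 rose and 2 fell, with sums of 83.9 to 128 and 95.3 to 132 FPKM. Of 4 neural crest markers 0 rose and 3 fell, and their sums were at most 0.619 and 0.163 FPKM. The part of these lineages in the differences of Lhx2, Emx2 and Otx2 was not tested.

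The genes whose pattern was most like that of Lhx2, the regulator with the highest mean log2 level, were found by Pearson's r of log2(FPKM + 0.1) over the 16 libraries, among genes with a mean of at least 1 FPKM. The libraries are splits of 4 RNA samples and fall into 2 days, so any gene with a large and even rise scores high. The first 5 were Smug1, Neo1 and Nxph2 (r = 0.9993 each) and Hoxc5 and Rarb (r = 0.9992 each). Rarb, a retinoic acid receptor, had 0.195 FPKM at day 0 and 107 at day 4, and Hoxc5 had 0.508 and 74.9. Nxph2, a secreted neurexin ligand, had 0.0014 and 17.5 FPKM, Neo1, a netrin receptor, 5.41 and 35.9, and Smug1, a DNA glycosylase, 5.02 and 43.3.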

How the data were processed

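Total RNA of embryoid bodies at day 0 and day 4 of retinoic acid treatment (2 RNA samples per day, 4 vials each) was sequenced as stranded paired-end libraries. The authors aligned reads with Bowtie2 2.1.0 to RefSeq transcripts of mm10 with the spike-ins, estimated isoforms with RSEM 1.2.18 in strand-specific mode, and deposited FPKM per transcript scaled by TMM. Replicate numbers come from the study's sample table. Here, rows of spike-ins and of 1700047L14Rik were left out, 98.6% of 33702 RefSeq rows were matched to a symbol, and rows of a gene were summed. Vials were averaged per RNA sample, and log2(FPKM + 0.1) was tested with limma 3.58.1 in R 4.3.3 (lmFit, eBayes with a trend, Benjamini-Hochberg over 20542 genes above 0 in any library). Python 3.11.15 with pandas 2.3.3 built the tables. The fit was tested on simulated data. Promoter windows come from RefSeq (GRCm38.p6) and exons from GENCODE M21.

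All 9 regulators were named, with all antisense partners and the 5 genes most like Lhx2. From each list of brain genes, partners and relatives, up to 4 called genes of largest change were named. From the marker lists, genes were named after their values were seen, and were not always those of largest change. Other genes named as at or near 0, and Ldb1, were also chosen after their values were seen. The members and lists were chosen with earlier results of these data known. P-values rest only on the spread between 2 RNA samples per day, moderated by the spread that limma shares over genes. Alternatives changed the pseudocount, low-value filter, vial summary, unit, variance model, scaling, GC content, replicate block and the samples or vials used. Other quantifications and the ERCC spike-ins were not used here. Single values of 2 listed genes are not reported here.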

Additional observations from a re-analysis of the deposited data

Results flagged for a closer look

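Otx2 had 0.029 FPKM in the mix 1 vial of day 4 replicate 1. The next library of that day had 0.009 and the other 6 had 0, so the gap took 0.69 of the range of the 8 libraries, above Dixon's 95% critical value for 8 values. This was the only library set apart in this way among 17 groups of 8 libraries (a regulator on a day, with any spread). For independent normal values, chance gives about 1 in 20. The 8 libraries are splits of 2 RNA samples and most were at 0, so that rate does not hold here. The gap is a description only. The 0.029 FPKM is a few times the smallest step of the table, and the libraries with 0.029 and 0.009 FPKM belong to the same RNA. The paper names the library with 0.029 FPKM as an outlier in its share of ribosomal RNA reads.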

How the results depend on the processing

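Lhx2 and Emx2 kept a positive and Otx2 a negative difference under all 19 alternatives, with log2 ranges of 4.25 to 7.32, 2.42 to 5.28 and -6.37 to -1.10, and passed under 17, 16 and 16 of them. The number of regulators called higher (2) was 1, Lhx2, from the mix 3 libraries alone and 0 to 2 when an RNA sample was left out. The number called lower (2) was 1, Otx2, with a pseudocount of 1, the filter of 1 FPKM, eBayes without a trend, equal library sums, the GC correction, RefSeq rows, and the libraries of mix 1, 2 or 4 alone. It was 0 from mix 3 alone and 0 to 2 when an RNA sample was left out. The replicate block, with the replicate number as a term, called 10609 genes against 6253 without it and lost Otx1 (1 regulator lower). With the GC correction added it called 11713 genes (1 regulator lower). The replicate numbers are shared between the days by the study's numbering, and the correlation of replicate differences between days was 0.767 over 11602 genes. The number of genes called was 10672 with the GC correction, 12444 without the mix 3 and mix 4 vials of day 0 replicate 2, 11607, 720 and 1413 from mix 1, mix 3 and mix 4 alone, and 0 to 9215 when an RNA sample was left out (0 without either day 4 sample, 9215 without day 0 replicate 2). The cause of these changes was not tested. Signs turned only in regulators that did not pass: Hesx1 to -0.02 (mix 3), En1 to -0.09 and -0.08 (mixes 1 and 2), and Rax to 0.01 (equal sums) and 0.08 (GC correction, with and without the block).

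The FPKM table gives no fragment counts, so low values have no detection limit. Between days, the log2 difference of rows had a slope of -1.057 per 10% GC, and -0.116 after correction, over 13893 rows; with the correction Lhx2 differed by 7.32, Emx2 by 4.75 and Otx2 by -3.56. Equal library sums moved the median over all genes from -0.03 to 0.05. Counts called in every other list went to 0 without either day 4 sample. From mix 3 and mix 4 alone, midbrain and isthmus genes called lower were 0 and 0 (against 5), organizer genes lower 1 and 2 (against 7), pluripotent and epiblast markers lower 3 and 3 (against 9), and hindbrain and spinal cord genes higher 8 and 9 (against 10). Telencephalon genes called higher were 2 with equal sums or the GC correction and 3 with the replicate block, against 1. Without either day 0 sample, endoderm markers called higher were 3 (against 5) and neuron markers lower 1 (against 3). Without day 0 replicate 1, organizer genes higher were 1 (against 3) and neural crest markers lower 1 (against 3), while pluripotent and epiblast markers lower were 6 (against 9). The other list counts moved by at most 2 genes when the mix 3 and mix 4 vials of day 0 replicate 2 were left out. In a list with 1 call, a move of 1 gene can be the loss of that call.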

Other observations

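Lhx2 and Emx2 are active outside the brain, and 9 genes of the urogenital system, limb and lateral mesoderm were therefore read as well. This list was chosen after the values of the regulators were seen, and its genes are given as levels with no test. Wt1, the zinc finger factor of kidney, gonad and mesothelium, had 0.364 to 0.659 FPKM at day 0 and 73.5 to 82.9 at day 4. Tcf21, a factor of the mesenchyme of kidney, lung and heart lining, had 0.098 to 0.506 and 14.7 to 18.2 FPKM. Tbx5, a factor of forelimb and heart, went from a mean of 0.0258 to 1.55 FPKM, and Osr1, a factor of intermediate mesoderm, from 0.0364 to 0.989. Hand2 had 2.22 and 3.68 FPKM and Eya1 0.818 and 2.21. Others were lower at day 4: Hand1 had 27.1 and 0.0406 FPKM, Sall1 6.05 and 0.134, and Gata3 3.69 and 0.787. Which cells held Lhx2 and Emx2 was not measured in these bulk samples.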
